A study of Mus musculus with 12 samples.

Results

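The genes described here build the extracellular matrix of the mouse testis, cut it, or tie cells to it. They were taken from the array's gene symbols by name: collagen chains, laminins, microfibril-associated proteins, fibrillins, fibulins, integrin alpha and beta subunits, matrix metalloproteinases (MMPs), their tissue inhibitors (Timp), the Adamts family, the lysyl oxidases, and Fn1, Sparc, Dcn, Lum, Bgn, Eln, Nid1, Nid2, Tnc, Thbs1 and Thbs2. This rule found 104 of the 9930 named genes, on 163 probes. No probe carried the symbol Lum or Nid1. Of the 104 genes, 95 were tested, because no comparison left them with fewer than 3 usable arrays of its 4. The other 9 were Adamts7, Col25a1, Col4a2, Fbln1, Itga4, Lama3, Lama5, Mmp12 and Mmp7. The rule also matched 4 symbols that name neither a matrix protein nor an integrin subunit, namely Itgb1bp2, Itgb3bp, Itgbl1 and Mfap3l.

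The study compared testis RNA of wildtype mice, Wobbler mice (genotype wr/wr) and Wobbler modifier mice (genotype wr/mod) on 12 cDNA arrays with 2 dyes, 4 arrays for each of the 3 pairs of genotypes. Wobbler is a recessive mouse mutation that causes motor neuron degeneration and, in males, round-headed sperm and infertility. Per the labels, every RNA was a pool of 3 males on a Castaneus background. The labels give no age, do not say what the modifier allele is, and do not say whether the pools of 1 genotype were made from different animals, so the p-values reflect array-to-array scatter that could be technical. One protocol text names a reference pool of control animals that has no counterpart among the channel labels, and the channel labels were used. No probe carried the symbol Vps54, the gene mutated in Wobbler, so its level was not checked here.

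Collagens and laminins are secreted, assembled outside the cell and crosslinked, and they give a tissue its fibres and its basement membranes. In the testis a basement membrane laid down by Sertoli and peritubular myoid cells surrounds each seminiferous tubule, and a collagen-rich capsule surrounds the organ. Integrins are paired alpha and beta receptors that bind the matrix from the cell surface, while MMPs and Adamts proteases cut it and Timp proteins block MMPs.

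Each value is a log2 ratio of the first-named genotype over the second, so 0 means equal signal and 1 means a doubling. Dye-exchanged arrays were turned because the 3 comparisons then fitted each other better. Which genotype the positive sign stands for was inferred from how the arrays are titled and from the customary dye order, so the direction is likely rather than certain. A ratio holds no level, so the labelled tissue could not be checked by how strongly its marker genes were expressed. In whole testis RNA, fewer cells of a type and less RNA per cell cannot be told apart. Usable spots per array numbered 18325 to 19584. Arrays of 1 comparison resembled each other little: across all tested features their correlation ran from -0.04 to 0.13 for Wobbler over wildtype, 0.06 to 0.18 for modifier over wildtype and 0.01 to 0.13 for modifier over Wobbler. Features are not independent replicates. Replicate 2 of Wobbler over wildtype stood apart, with an SD of 1.61 over its spots against 0.62 to 0.99 on the other 11 arrays. Ratios of the matrix genes also followed the dyes: in Wobbler over wildtype their median was 0.13 and 0.22 on replicates 1 and 2, and -0.22 and -0.07 on replicates 3 and 4, where the dyes were exchanged. The fit therefore held a dye term.

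Very few matrix genes passed the test (limma, Benjamini-Hochberg adjusted p under 0.05 across all 14729 tested features). Wobbler over wildtype had 0 of 95 past the threshold, 0 higher and 0 lower, where 0.306% of all features passed (0.122% higher, 0.183% lower). Modifier over wildtype had 0 of 95, where 0.733% of all features passed (0.0339% higher, 0.699% lower). Modifier over Wobbler had 1 of 95, Mfap5, which was higher, where 0.414% of all features passed (0.115% higher, 0.299% lower).

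At an unadjusted p under 0.05 the matrix genes numbered 14, 4 and 12 in the comparisons in that order, which is 14.7%, 4.21% and 12.6% of them, against 15.7%, 7.33% and 11.5% of all features. The 14 genes of Wobbler over wildtype were 8 higher and 6 lower, or 8.42% and 6.32%, where 7.22% and 8.47% of all features were. The 4 of modifier over wildtype were 3 higher and 1 lower, or 3.16% and 1.05%, beside 2.11% and 5.22% of all features. The 12 of modifier over Wobbler were 11 higher and 1 lower, or 11.6% and 1.05%, beside 7.03% and 4.47%. Ratios above 0 on every array with a value were found in 6, 9 and 15 matrix genes, or 6.32%, 9.47% and 15.8%, beside 6.58%, 8.81% and 11% of all features. Ratios below 0 on every such array were found in 9, 7 and 6, or 9.47%, 7.37% and 6.32%, beside 11%, 10.4% and 6.8%.

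The median log2 ratio of the 95 genes was 0.04, 0.04 and 0.12, again in that order, beside all-feature medians of -0.007, 0.01 and 0.08. Without replicate 2 of Wobbler over wildtype the first median was -0.05, and 0 genes passed. Spread within genes was a little wider than for the average feature, with a median residual of 0.46, 0.25 and 0.36 among the matrix genes against 0.37, 0.22 and 0.31 among all features.

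**Figure D1:**
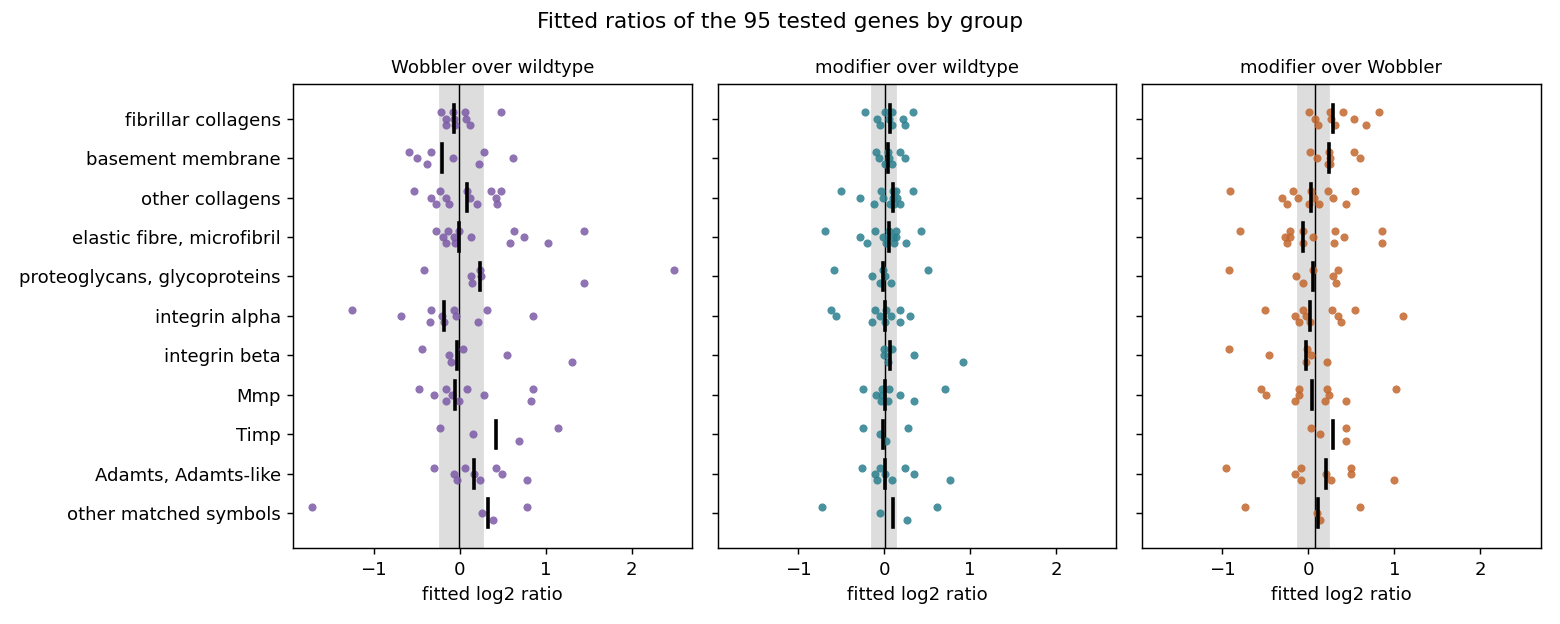
Fitted log2 ratio of each tested matrix or integrin gene (points) by family in the 3 comparisons, with the thick bar at the family median, the thin line at the median of all tested features, and the grey band from the lower to the upper quartile of all tested features. Fibrillar collagens lie on the positive side in modifier over Wobbler (10 of 10 genes), where 61.6% of all features are also positive.

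Mfap5 had the smallest p of the matrix genes in modifier over Wobbler and was the one that rose there. It encodes a small glycoprotein of the microfibrils that scaffold elastic fibres. Its 1 probe gave 0.997, 0.69, 1.32 and 0.44 on the 4 arrays. All 4 were positive, and the lowest of them was higher than each of the 8 Mfap5 values of the other comparisons. The fitted ratio was 0.86 ± 0.15 (SE of the fit, n = 4), a 1.82-fold higher signal in the modifier pools (adjusted p = 0.0495). This call rests on the processing: the adjusted p was 0.0641 with every array centred on its median, 0.0954 with arrays also scaled, and 0.0859 without the dye term. With any 1 array left out it ran from 0.0402 to 0.208, and it lay under 0.05 when that array was replicate 2 of Wobbler over wildtype but above it for each other array. Read as channel 1 over channel 2, the ratio was -0.017. The Mfap5 arrays of Wobbler over wildtype gave -0.39, 0.13, -0.09 and -0.18, and those of modifier over wildtype 0.20, 0.10, 0.22 and -0.13. Both sets straddled 0, with fitted ratios of -0.13 and 0.10. The difference between those 2 ratios gives an indirect modifier over Wobbler ratio of 0.23, and the direct ratio exceeded it by 0.63 ± 0.26 (adjusted p = 0.688).

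The other elastic fibre genes were spread on both sides of 0. Of 13 tested, Mfap5 included, 6 were positive and 7 negative in modifier over Wobbler, with a median of -0.06. Eln, which encodes elastin itself, gave 0.33, 0.49, -1.13 and 0.52 there. Loxl1, a lysyl oxidase that crosslinks elastin, gave 0.16, 0.00, -1.04 and 0.00, and Mfap3 gave -0.83, -2.64, -0.10 and 0.40. In Eln and Loxl1 a single array, replicate 3, lay below the rest, and in Mfap3 the arrays spread on both sides of 0. The Mfap3 probes differed: 1 averaged -2.15 with an SD of 3.34 on 3 arrays, and the other 0.06 with an SD of 0.27. For Wobbler over wildtype, Loxl1 gave -0.24, 2.19, 1.77 and 0.41, a fitted 1.03 ± 0.37 (adjusted p = 0.245).

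**Figure D2:**
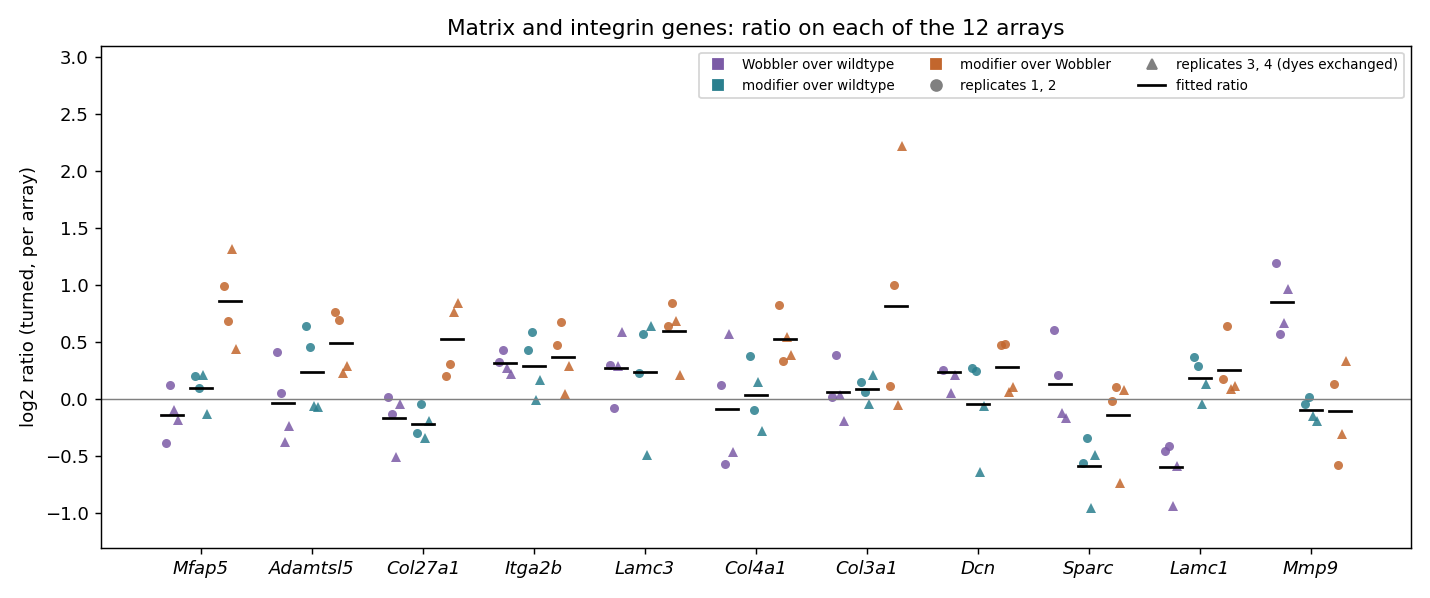
Log2 ratio on each of the 4 arrays (points) of every comparison for 11 matrix and integrin genes, with triangles for dye-exchanged arrays and the bar at the fitted ratio. The 4 modifier over Wobbler points of Mfap5 lie between 0.44 and 1.32, above its points in the other comparisons.

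Adamtsl5 came next to Mfap5 among genes higher in modifier over Wobbler. It belongs to the Adamts-like proteins, secreted relatives of the Adamts proteases that lack the protease part. Its arrays gave 0.77, 0.70, 0.23 and 0.29. All were positive, and those of the first dye order were the higher pair. The fitted ratio of 0.50 ± 0.10 did not pass (adjusted p = 0.0712). It did pass when replicate 2 of Wobbler over wildtype was left out (adjusted p = 0.0443) and when the 3 comparisons were joined in 1 model of the loop (0.42, adjusted p = 0.0392). Leaving out that replicate also took the count of all features passing in modifier over Wobbler from 61 to 128. In modifier over wildtype Adamtsl5 gave 0.64, 0.46, -0.06 and -0.07, split by dye order.

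Fibrillar collagens, the chains of the rope-like collagen fibres, had 10 of 10 fitted ratios above 0 in modifier over Wobbler, with a median of 0.28. None of the 10 passed the test, and 61.6% of all features were positive in this comparison. With arrays centred on their medians 9 of 10 were positive, without replicate 4 of modifier over Wobbler 8 of 10, and with values read as channel 1 over channel 2 only 5 of 10, where 68.4% of all features were positive. Only 4 of 10 were positive in Wobbler over wildtype, and 7 of 10 were in modifier over wildtype. Col3a1, the chain of type III collagen common in the walls of vessels and in soft organs, gave 0.12, 1.005, -0.05 and 2.22 in modifier over Wobbler. Replicates 2 and 4 were high and the other 2 arrays near 0. The fitted 0.82 ± 0.30 had an adjusted p of 0.34. Col27a1, averaged over its 2 probes, was steadier, with 0.20, 0.31, 0.76 and 0.84, all positive and fitted at 0.53 ± 0.14 (adjusted p = 0.169). Taken alone, 1 probe gave 0.064, 0.265, 1.59 and 0.84, and the other was fitted at 0.17 ± 0.22. Col1a1 and Col1a2, which pair up to form type I collagen, were close to 0 as averages of their probes. Col1a1 gave 0.08, 0.28, -0.20 and -0.11, and Col1a2 gave -0.23, -0.49, 0.03 and 0.97. Their fitted ratios were 0.01 ± 0.11 and 0.07 ± 0.21.

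Basement membrane genes were also on the positive side in modifier over Wobbler. There 8 of 8 tested had a ratio above 0, where 61.6% of all features did. Their median was 0.25, and 0 passed. With arrays centred, 7 of 8 were positive, beside 53.3% of all features. Read as channel 1 over channel 2, 5 of 8 were, beside 68.4%. Without replicate 4 of modifier over Wobbler, 9 genes could be tested and 5 were positive. Lamc3, a laminin gamma chain, gave 0.65, 0.85, 0.69 and 0.22, all above 0 (fitted 0.60 ± 0.19, adjusted p = 0.275). Col4a1, a main chain of the type IV collagen network of basement membranes, gave 0.83, 0.34, 0.55 and 0.39, also all above 0 (fitted 0.53 ± 0.19, adjusted p = 0.341). Its probes averaged 0.50, 0.16, 1.55 and -0.78 in modifier over Wobbler, the last with a value on 1 array. Lamb2 and Nid2 stayed close to 0 there, at 0.02 ± 0.12 and 0.10 ± 0.19.

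Col4a2 encodes the partner chain that assembles with Col4a1, and the 2 genes lie head to head on chromosome 8. Their RefSeq start windows (GRCm38.p6, 250 bases before to 50 bases after each start) are printed here because they overlap over 78 bases, chr8:11312777-11312854. The overlap holds the start site on which each window was built. The outer end of the Col4a1 gene, chr8:11312889, lies outside the overlap. Capitals mark matches on either strand to the CCAAT box (CCAAT), to the GC box bound by Sp1-like factors (GGGCGG), and to the TATA box (TATAAA). Col4a1 is on the minus strand at chr8:11312777-11313076 and Col4a2 on the plus strand at chr8:11312555-11312854, and the shared stretch is the last 78 bases of each line.
Col4a1: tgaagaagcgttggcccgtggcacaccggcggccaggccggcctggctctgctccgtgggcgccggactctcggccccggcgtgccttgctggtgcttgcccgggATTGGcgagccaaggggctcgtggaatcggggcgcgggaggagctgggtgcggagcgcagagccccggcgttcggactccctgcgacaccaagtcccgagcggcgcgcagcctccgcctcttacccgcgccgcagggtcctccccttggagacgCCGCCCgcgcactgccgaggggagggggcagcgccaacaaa
Col4a2: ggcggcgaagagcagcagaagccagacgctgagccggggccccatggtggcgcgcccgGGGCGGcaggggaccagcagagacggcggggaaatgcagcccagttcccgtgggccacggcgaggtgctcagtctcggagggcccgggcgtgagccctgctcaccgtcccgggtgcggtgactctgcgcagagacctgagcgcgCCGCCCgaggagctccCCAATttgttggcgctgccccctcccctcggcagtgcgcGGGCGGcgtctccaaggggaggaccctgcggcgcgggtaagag
The shared stretch holds 1 GC box, read as CCGCCC on the Col4a1 strand. The Col4a1 window also holds a CCAAT box outside that stretch, read there as ATTGG. The Col4a2 window holds 2 further GC boxes outside it and a CCAAT box that runs across its edge. The GC box occurred in 59.74% of the 77 start windows found for 65 of the 104 genes, the CCAAT box in 31.17% and the TATA box in 18.18%. Among all 32851 windows the shares were 35.66%, 37.41% and 13.62%. These are letter matches, and no binding was measured.

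The partner chains were not measured equally well. Col4a2 had only 8 values on 12 arrays and was not tested. In modifier over Wobbler it had 2 values, -2.68 and -1.04, both negative while Col4a1 was positive on the same 2 arrays (0.34 and 0.55). In modifier over wildtype Col4a2 gave -1.74, -0.20 and -0.11 on 3 arrays and Col4a1 gave 0.38, -0.09, 0.15 and -0.27 on 4. Lama5, likewise untested, was also negative on its 2 modifier over Wobbler arrays (-0.76 and -1.66). With values on 2 arrays accepted, 8 of 10 basement membrane genes were positive in that comparison.

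Other collagens showed no common direction: in modifier over Wobbler 8 of 13 were positive with a median of 0.03. Col14a1, a collagen that sits on the surface of fibrils, was the 1 matrix gene lower at an unadjusted p under 0.05. It gave -0.84, -1.71 and -0.28 on replicates 2 to 4 and had no value on replicate 1 (fitted -0.91 ± 0.29, adjusted p = 0.288). Col6a1 and Col6a2, partners in the beaded filaments of type VI collagen, were at -0.12 ± 0.15 and 0.00 ± 0.17. For Wobbler over wildtype Col6a2 gave 0.25, 1.37, 0.07 and 0.00, high on replicate 2. Col9a2 and Col16a1, which associate with fibrils, had ratios of -0.30 ± 0.20 and -0.25 ± 0.26 in modifier over Wobbler. Col6a3 had no probe of that symbol.

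Sparc had the smallest p of the matrix genes in modifier over wildtype. Its protein is a secreted, collagen-binding glycoprotein. The average of its 3 probes gave -0.56, -0.34, -0.96 and -0.49. All 4 arrays were negative, and none of the 4 values overlapped those of Wobbler over wildtype (0.61, 0.22, -0.12 and -0.16). The fitted ratio was -0.59 ± 0.15 (adjusted p = 0.161), which did not pass. It did pass with arrays centred and scaled (-0.74, adjusted p = 0.0172) and with array weights (-0.58, adjusted p = 0.00898). The count of all features passing in this comparison also changed with the setting, from 0 to 709, against 108 in the main fit. The 3 probes lay close together, at -0.54, -0.67 and -0.55. In modifier over Wobbler Sparc gave -0.01, 0.11, -0.73 and 0.08, 3 arrays near 0 and 1 below. The indirect ratio from the wildtype comparisons was -0.72, so the direct ratio of -0.14 lay 0.58 ± 0.26 above it (adjusted p = 0.699). Its RefSeq start window (minus strand, chr11:55420031-55420330, GRCm38.p6) is shown as the contrast to the type IV collagen windows: it holds none of the 3 motifs.
Sparc: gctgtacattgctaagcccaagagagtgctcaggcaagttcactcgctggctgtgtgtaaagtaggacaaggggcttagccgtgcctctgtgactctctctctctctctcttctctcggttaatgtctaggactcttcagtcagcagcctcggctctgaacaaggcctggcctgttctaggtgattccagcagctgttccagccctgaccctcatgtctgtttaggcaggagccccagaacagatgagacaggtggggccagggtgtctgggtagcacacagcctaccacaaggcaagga

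The other proteoglycans and adhesive glycoproteins gave small or unsteady ratios. Dcn, decorin, a small proteoglycan that coats collagen fibrils, gave 0.47, 0.49, 0.06 and 0.11 in modifier over Wobbler, all positive (fitted 0.28 ± 0.13, adjusted p = 0.434). Fn1, fibronectin, the adhesive protein bound by many integrins, gave 0.22, 0.34, -0.11 and -0.24 there, positive in 1 dye order and negative in the other. Tnc, tenascin C, gave 0.21, 0.74, 0.18 and 0.26 in modifier over Wobbler but -2.66 to 2.09 in Wobbler over wildtype. Thbs1, thrombospondin 1, had the largest fitted ratio of the set, 2.49 ± 1.08 in Wobbler over wildtype (adjusted p = 0.308). Its arrays gave -0.42, 4.23, 0.17 and 5.99, so 2 arrays carried it and the other 2 lay near 0. Bgn, biglycan, had 6.97 on replicate 2 of that comparison and -0.41, -0.16 and -0.60 on the others. Thbs2 was negative on all 4 arrays of Wobbler over wildtype (-0.35, -0.18, -0.96 and -0.17, fitted -0.41 ± 0.17, adjusted p = 0.296).

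Lamc1 and Mmp9 had the smallest p of the matrix genes in Wobbler over wildtype. Lamc1 encodes the laminin gamma 1 chain found in most basement membrane laminins. It gave -0.45, -0.41, -0.94 and -0.58, all negative and below each of its 8 values in the other comparisons. The fitted ratio was -0.60 ± 0.11 (adjusted p = 0.0663), which passed when a value on all 4 arrays of each comparison was required (adjusted p = 0.0496). Mmp9, gelatinase B, cuts type IV collagen. It gave 1.19, 0.57, 0.67 and 0.97, all positive (fitted 0.85 ± 0.16, adjusted p = 0.0826). In modifier over wildtype its arrays lay between -0.19 and 0.02, and in modifier over Wobbler between -0.58 and 0.33.

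Both averages hid probes that disagreed. In a fit of single probes (18038 probes, 147 of them for matrix genes), Mmp9 probe 2214 gave 2.07, 1.71, 1.65 and 1.65 in Wobbler over wildtype. The 4 arrays were close together, and the fitted ratio of 1.77 ± 0.12 passed (adjusted p = 0.000161). The other Mmp9 probe had -0.07. Probe 2214 was at -0.24 over wildtype in the modifier and 0.11 in modifier over Wobbler, on 4 arrays each. The direct modifier over Wobbler ratio lay 2.12 above the one that follows from both comparisons with wildtype (adjusted p = 0.00595), so the 3 comparisons of this probe do not add up. It was the 1 probe of a matrix gene whose difference passed the threshold, where 0.0277% of all probes had one that did.

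For Lamc1, the 3 probes gave -0.01, -0.63 and -1.15 in Wobbler over wildtype, and the last passed on its own (adjusted p = 0.00483). Single probes of matrix genes past the threshold numbered 2 in Wobbler over wildtype (Mmp9 and Lamc1), or 1.36% against 0.482% of all probes. They numbered 0 in modifier over wildtype, where 0.915% of all probes passed, and 2 in modifier over Wobbler (Mfap5 and Loxl3), or 1.36% against 0.61%. Loxl3, another lysyl oxidase, had 1 probe at 2.52, 2.76 and 2.11 on the 3 arrays with a value (fitted 2.49 ± 0.33, adjusted p = 0.0245) and a second at 0.01. The first probe was at 0.65 in Wobbler over wildtype and 0.22 in modifier over wildtype. Its indirect modifier over Wobbler ratio minus its direct one was -2.93 ± 0.55, a gap that did not pass (adjusted p = 0.286). Over the 34 matrix genes with at least 2 tested probes, all probes of a gene had the same sign in 18, 14 and 17 genes in the 3 comparisons in the order above. The probes of a gene lay more than 1 apart in 12, 1 and 4 genes. Whether disagreeing probes measured different transcripts was not tested.

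**Figure D3:**
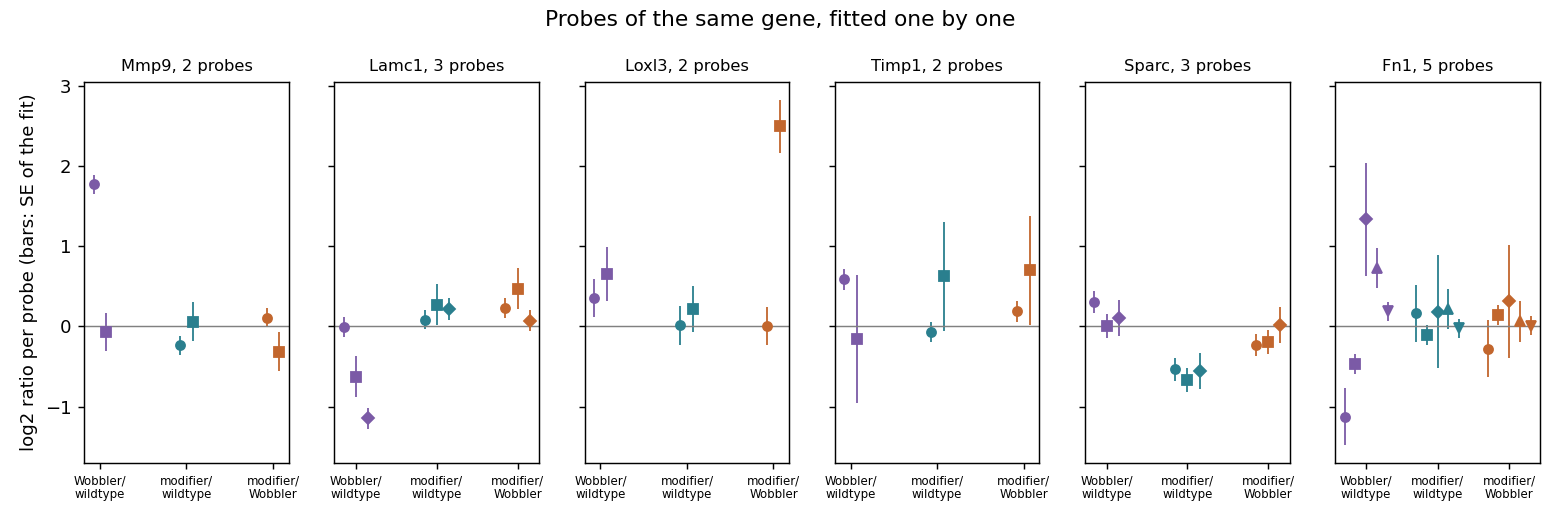
Fitted log2 ratio of each probe (point, with its SE as the bar) of Mmp9, Lamc1, Loxl3, Timp1, Sparc and Fn1 in the 3 comparisons. The 3 Sparc probes lie together in modifier over wildtype (-0.54 to -0.67), while the Mmp9 probes lie at 1.77 and -0.07 in Wobbler over wildtype.

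Among the other proteases, Mmp2 and Mmp14, which work together in cutting collagen at the cell surface, had fitted ratios of 0.20 ± 0.13 and 0.44 ± 0.33 in modifier over Wobbler. The Mmp14 value came from replicate 2 (1.84), with the other 3 arrays between -0.08 and 0.03. Mmp17, a membrane-anchored MMP, gave 0.58, 0.77, 0.78 and 0.72 in modifier over wildtype, 4 values close together (fitted 0.71 ± 0.35, adjusted p = 0.789). The fit's error stayed large because Mmp17 ran from -0.72 to 2.17 in Wobbler over wildtype. Mmp24 was negative on all 4 arrays of modifier over Wobbler, at -0.27, -0.30, -0.60 and -0.80 (fitted -0.49 ± 0.28, adjusted p = 0.545). Over the 10 tested MMPs, 5 were positive and 5 negative in each of the modifier comparisons.

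All 4 Timp genes had a positive fitted ratio in modifier over Wobbler (median 0.28), where 61.6% of all features did, and 0 passed. Read as channel 1 over channel 2, again 4 of 4 were positive, beside 68.4% of all features. With arrays centred 3 of 4 were, beside 53.3%. Timp1 gave 0.72, 1.91, -0.51 and -0.35, positive in 1 dye order and negative in the other. Its 2 probes averaged 0.19 (SD 0.35) and 0.70 (SD 1.97) there. In Wobbler over wildtype the first of these probes gave 0.53, 0.71, 0.36 and 0.74. Fitted alone it was at 0.59 ± 0.13 (adjusted p = 0.0891), while the second was at -0.16 ± 0.79. Timp2 owed its 0.43 ± 0.55 to replicate 1 (2.79), since the other arrays lay between -0.70 and -0.08. Timp3 and Timp4 were at 0.14 ± 0.38 and 0.03 ± 0.16. Among the Adamts genes, Adamts1, an aggrecan-cutting protease, gave 0.23, 0.12, 0.68 and 0.35 in modifier over wildtype, all positive (fitted 0.34 ± 0.14, adjusted p = 0.585). Adamts16 gave 0.15, 1.26, 0.62 and -0.05 in Wobbler over wildtype (fitted 0.49 ± 0.19, adjusted p = 0.26). Its 2 probes went opposite ways there, at 1.38 ± 0.41 and -0.40 ± 0.13. Adamtsl1 ran from -2.18 to 0.16 in modifier over Wobbler, with replicates 2 and 4 low.

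Integrin subunits gave mostly small ratios. Itgb1, the beta subunit shared by most matrix-binding integrins, was at 0.04 ± 0.12 for Wobbler over wildtype, 0.00 ± 0.12 for modifier over wildtype and 0.03 ± 0.12 for modifier over Wobbler. Itga6, a laminin receptor subunit found on spermatogonia, was at -0.04 ± 0.17, 0.02 ± 0.17 and -0.06 ± 0.17. For both genes the arrays were split by dye order in modifier over Wobbler, with 0.18, 0.43, -0.41 and -0.10 for Itgb1. All 6 tested beta subunits had a positive ratio in modifier over wildtype, where 52.5% of all features did, and 4 of 6 with arrays centred. Their median was 0.07 and 0 passed. Read as channel 1 over channel 2, again 6 of 6 were positive, beside 81% of all features.

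Itga2b, the alpha subunit of the platelet fibrinogen receptor, was positive on 11 of 12 arrays. It gave 0.33, 0.43, 0.28 and 0.23 in Wobbler over wildtype, 0.43, 0.59, -0.01 and 0.17 in modifier over wildtype, and 0.48, 0.68, 0.04 and 0.29 in modifier over Wobbler. The 3 sets overlapped. Their fitted ratios were 0.32, 0.30 and 0.37, each ± 0.10, with adjusted p of 0.214, 0.412 and 0.188. The comparisons with wildtype imply -0.02 for modifier over Wobbler, and the direct value lay 0.39 ± 0.18 above that (adjusted p = 0.71). Itga2, a collagen receptor subunit, was negative on all 4 arrays of Wobbler over wildtype (-0.65, -1.11, -0.24 and -3.01, fitted -1.25 ± 0.49, adjusted p = 0.274). Itga3, a laminin receptor subunit, was negative on the same 4 arrays (-0.82, -0.21, -0.31 and -0.07, fitted -0.35 ± 0.14, adjusted p = 0.284). Itgae, which marks lymphocytes lodged in epithelium, was negative on all 4 arrays of both modifier comparisons, at -0.62 ± 0.34 over wildtype and -0.50 ± 0.34 over Wobbler.

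The 4 matched symbols outside the matrix and integrin families were scattered. Itgbl1, an integrin-like secreted protein, gave 0.10, -0.25, -3.81 and -2.92 in Wobbler over wildtype, near 0 in 1 dye order and far below it in the other (fitted -1.72 ± 0.52, adjusted p = 0.196). Mfap3l was negative on all 8 arrays with modifier pools, at -0.72 ± 0.55 over wildtype and -0.74 ± 0.55 over Wobbler. Itgb1bp2 and Itgb3bp had fitted ratios of 0.10 to 0.61 in the 3 comparisons.

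The 3 comparisons form a loop, so modifier over Wobbler was measured directly and also follows from the other 2. Direct and indirect ratios share no array. Of the 95 matrix genes 0 differed between the routes after adjustment, where 0.0272% of all features did, and 8 did at an unadjusted p under 0.05 (8.42%, against 6.95% of all features). Col14a1 had the largest gap of these in size relative to its error, -1.51 ± 0.47 (adjusted p = 0.636), with a direct ratio of -0.91 and an indirect ratio of 0.60.

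**Figure D4:**
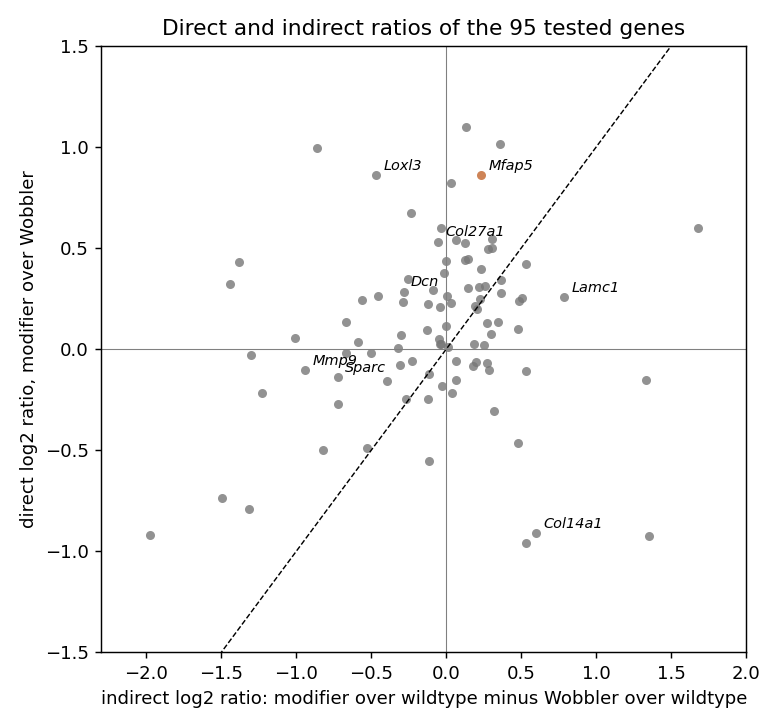
Direct modifier over Wobbler log2 ratio of the 95 tested genes against the ratio implied by the comparisons with wildtype, with the dashed line at equality and names at the 8 genes whose routes differ at an unadjusted p under 0.05. Mfap5 (orange) lies at 0.86 directly and 0.23 indirectly.

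Genes that work with the matrix were counted from 5 further lists. Collagen-processing enzymes (16 tested), other matrix proteins (25), the adhesion complex inside the cell (13), other matrix receptors (9) and other matrix proteases and inhibitors (14) had 0 genes past the threshold in any comparison. The median of the collagen-processing enzymes in modifier over Wobbler was 0.18. Smoc2, a Sparc relative, was at 0.44 ± 0.13 there (adjusted p = 0.212). Cd44, the hyaluronan receptor, was at -0.90 ± 0.51, -1.48 ± 0.44 and -1.15 ± 0.51 in the 3 comparisons in the same order, with adjusted p of 0.417, 0.308 and 0.445. Adam12, a membrane protease, was at -1.80 ± 0.42 in modifier over Wobbler (adjusted p = 0.142).

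Some markers of other testis cells were lower in the comparisons that held modifier pools. These lists were drawn up with earlier results of these data known. Of 16 late spermatid markers, 7 passed as lower in modifier over wildtype (list median -0.87) and 5 in modifier over Wobbler (median -0.62). All 16 had a fitted ratio below 0 in both comparisons. Among all features 0.699% and 0.299% passed as lower. On the 4 arrays of modifier over Wobbler the list median was -0.64, -0.44, -0.62 and -0.64. Of 6 Leydig markers, 2 and 1 passed as lower (medians -0.80 and -0.60), and all 6 were below 0 in both. Of 7 macrophage markers, Tyrobp passed as lower in modifier over wildtype (-0.68), where 5 of the 7 were below 0. Of the cells that make most matrix, 0 of 8 Sertoli, 0 of 7 peritubular and smooth muscle, 0 of 8 endothelial and 0 of 8 fibroblast and capsule markers passed in any comparison, nor did any of 3 epididymis and 3 blood markers. The medians of the Sertoli, peritubular, endothelial and fibroblast lists in modifier over Wobbler were -0.02, -0.10, 0.22 and 0.05. For Wobbler over wildtype, all 8 fibroblast and capsule markers were positive, where 49.2% of all features were, with a median of 0.38 and an array median of 1.14 on replicate 2. Without that replicate 5 of 8 were positive, with a median of 0.18. Read as channel 1 over channel 2, 7 of 8 were, beside 72.8% of all features, and 0 late spermatid or Leydig markers passed in any comparison. The part of these cell markers in the ratios of Mfap5, Sparc and the collagens was not tested.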

How the data were processed

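The authors deposited 1 log2 ratio per spot for each of 12 arrays. How they were scanned, background-corrected and normalized is not stated in the sources used here; the values themselves gave the log base. On each array 22 to 165 spots shared 1 value above 15, read as a code for an unusable denominator and set to missing. Dye-exchanged arrays were multiplied by -1, because the loop of comparisons then closed better (correlation 0.126 against 0.00619 when read as channel 1 over channel 2, over 14729 features). Of 20355 probes 14030 had 1 symbol, 5 several and 6320 none. Gene identifiers were looked up in a table of assembly GRCm38.p6, which lacked 36. Probes of a gene were averaged per array, and 14729 of 16255 features kept 3 or 4 usable arrays in each comparison and were tested. Precision is limited by the number of arrays. The model (limma 3.58.1, functions lmFit and eBayes, R 4.3.3) had 1 mean per comparison and a dye term over all 12 arrays, leaving 8 residual degrees of freedom; an SE pools the spread of all 12. The fit was tested on simulated data.

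The members and lists were chosen with earlier results of these data known. Named were genes past the threshold, up to 6 per direction and comparison with the smallest p, the genes listed by name, and partner collagen chains, Itgb1, Itga6, Mmp2, Mmp9, Mmp14 and Timp1 to Timp4; untested Lama5 and probes of Loxl3 were named after their values were seen. Alternatives changed centring, scaling, the dye term, filters, the model, array weights, direction, probe averaging and the arrays included.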

Additional observations from a re-analysis of the deposited data

Results flagged for a closer look

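Among 132 sets of 4 arrays of the named genes, 12 held 1 array far from the other 3. The cut-off used gives this in about 1 in 20 sets of 4 normal values of equal spread. Spread differed between the arrays here, and no rate over all features was counted, so the 12 cannot be read as an excess. In Wobbler over wildtype there were 5, of which 4 were high on replicate 2: Bgn at 6.97, Eln at 5.40, Mfap3l at 4.04 and Timp3 at 2.86. The fifth was Col16a1, at -1.44 on replicate 3. In modifier over wildtype there were 0.

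In modifier over Wobbler there were 7. On replicate 3, Col16a1 was at -1.01, Eln at -1.13, Loxl1 at -1.04 and Sparc at -0.73, each below its other arrays. On replicate 2, Lamc1 was at 0.64, Mmp14 at 1.84 and Tnc at 0.74, each above its other arrays. For probe 2214 of Mmp9, the direct modifier over Wobbler ratio exceeded the one from the other comparisons by 2.12 (limma, adjusted p = 0.00595).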

How the results depend on the processing

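Matrix genes passing in modifier over Wobbler numbered 1, and 0 to 2 with each array left out in turn. The count was 0 with arrays centred, with arrays centred and scaled, without the dye term, with a value on 2 arrays accepted, with each comparison fitted alone, with values read as channel 1 over channel 2 and with robust eBayes, and 2 in the fit per probe. In the model of the loop the count was 1, with Adamtsl5 in place of Mfap5. With the replicate number as a block it was also 0 (Mfap5 adjusted p = 0.0828); the block changed no other count of matrix genes that passed. Deviations of same-numbered arrays had r from -0.32 to 0.004 in 12 pairs, with 0 over 0.1. Among 36 pairs of different number, 14 had r over 0.1. A Wobbler pool shared by Wobbler over wildtype and modifier over Wobbler would give a negative r, and a shared wildtype or modifier pool a positive r. Same-numbered arrays also share a dye order, and the fitted dye term by itself pushes the r of such arrays down. The count over 0.1 therefore cannot tell whether the numbers pair the arrays. Mfap5 became -0.017 (adjusted p = 0.991) when read as channel 1 over channel 2. Its adjusted p ran from 0.0322 to 0.636 over the other changed settings and from 0.0402 to 0.208 with 1 array left out. It stayed under 0.05 without replicate 2 of Wobbler over wildtype and not without any other array. In Wobbler over wildtype the count of 0 became 1 (Lamc1) with values on all 4 arrays required and 2 per probe. In modifier over wildtype it became 1 (Sparc) with scaling and 2 (Sparc and Itga2b) with array weights. Both counts stayed 0 with any array left out. The difference between the direct and indirect routes passed in 1 gene (Mmp9) per probe. The causes were not tested. Medians of the 95 genes ranged from -0.05 to 0.10, 0.02 to 0.06 and 0.09 to 0.14 with 1 array left out, and from -0.01 to 0.15, 0.02 to 0.14 and 0.04 to 0.19 over the other settings. The highest of each came from reading channel 1 over channel 2, where the all-feature medians were 0.17, 0.15 and 0.12. All features called ranged from 18 to 54, 20 to 153 and 0 to 128 with 1 array left out, against 45, 108 and 61. They ranged from 0 to 87, 0 to 709 and 0 to 207 over the other settings. An alternative without the 4 symbols that are no matrix gene kept the counts at 0, 0 and 1; it and the other settings of the marker lists were chosen after seeing the data. No intensities were used here, so signal over background could not be weighed.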
